A study of Rattus norvegicus with 9 samples.

Results

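Lpcat1, Lpcat2, Lpcat3, Lpcat4, Agpat1, Agpat4, Pla2g2a, Pla2g4a, Pld2 and Pld4 encode acyltransferases that attach fatty acids to lysophospholipids and enzymes of the phospholipase A2 and phospholipase D families. These 10 genes were taken by symbol from the 17156 gene names in the liver RNA-seq tables. They were chosen by their read counts in these livers, several of them because they were lower after tormentic acid (TA) than in the CCl4 model, so their values in TA VS Model, and the number of them past a threshold there, describe the choice and test nothing.

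The livers came from male Sprague-Dawley rats in 3 groups of 3. The normal control group received saline. The model group received carbon tetrachloride (CCl4), a hepatotoxin that scars the liver, as a 50% oil solution at 2 ml/kg into the stomach, in 2 doses a week for 9 weeks. The TA group received the same CCl4 and then tormentic acid, a plant triterpenoid, at 3.0 mg/kg for 6 weeks. The dose comes from the description of the series, because the sample labels name the treated livers TA1, TA2 and TA3 and give no dose, and whether the model rats received a vehicle in those 6 weeks is not given in the sources used here. All rats were fasted for 12 h before the livers were taken.

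Cells rebuild their membrane phospholipids in a cycle first described by Lands. Phospholipases A2 cut the fatty acid from the middle position of a phospholipid and leave a lysophospholipid, and lysophospholipid acyltransferases put another fatty acid back. The acids set free, arachidonate above all, feed the synthesis of prostaglandins and leukotrienes. AGPAT enzymes act earlier, where they turn lysophosphatidic acid into phosphatidic acid on the way to new glycerolipids, and classical phospholipase D makes phosphatidic acid from phosphatidylcholine.

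The libraries held 13156735 to 18090405 reads assigned to genes. The share of the 50 most abundant genes was 27.9% in the first model liver and 40.4% to 45.7% in the other 8 livers, and the scaling factor of edgeR (TMM) was 1.72 in that liver and 0.819 to 1.17 in the others. By read counts scaled with TMM to a common library size (CPM), the first model liver was the highest of its group for 10 of 10 genes. Its CPM over the mean of the other model livers had a median of 2.23 over the 10 genes, beside 0.968 over all genes tested. The fold changes of the 10 genes are therefore given with and without it, as are those of some genes of the pathway lists.

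The upstream sequences of 4 genes are shown because their transcripts behaved differently: Lpcat3 was the only gene of the 10 whose model livers had a lower mean CPM than the normal control livers, Lpcat4 depended least on the first model liver, Pla2g2a had the largest fold changes against the model group, and Pld4 had the highest CPM of the phospholipase genes. Each holds the 250 bases before the annotated start, 5′ to 3′ on the strand of the gene, from RefSeq (GRCr8). Capitals mark the letters of a TATA box written TATAAA, of the CCAAT box, of a GC box with the letters GGGCGG, of an AP-1 site written as TGANTCA, of a PU.1 site with the letters GAGGAAGT, of a C/EBP site given by TTGCNNAA and of a loose form of the NF-kB site given by GGGNNNNNCC. All were searched on both strands, and the NF-kB letters often overlap a GC box.

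Lpcat3, chr4:159154440-159154689, plus strand: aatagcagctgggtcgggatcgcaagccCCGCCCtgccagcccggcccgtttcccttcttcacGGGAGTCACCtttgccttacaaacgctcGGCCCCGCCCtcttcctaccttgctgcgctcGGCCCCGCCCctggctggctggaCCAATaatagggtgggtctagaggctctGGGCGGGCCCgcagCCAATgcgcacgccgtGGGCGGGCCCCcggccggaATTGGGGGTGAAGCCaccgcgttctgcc

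Lpcat4, chr3:119498878-119499127, plus strand: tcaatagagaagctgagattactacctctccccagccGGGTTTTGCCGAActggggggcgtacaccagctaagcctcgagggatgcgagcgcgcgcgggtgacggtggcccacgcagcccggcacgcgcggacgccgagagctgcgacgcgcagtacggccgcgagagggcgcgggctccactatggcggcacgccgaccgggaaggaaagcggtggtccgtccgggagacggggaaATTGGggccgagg

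Pla2g2a, chr5:156359475-156359724, plus strand: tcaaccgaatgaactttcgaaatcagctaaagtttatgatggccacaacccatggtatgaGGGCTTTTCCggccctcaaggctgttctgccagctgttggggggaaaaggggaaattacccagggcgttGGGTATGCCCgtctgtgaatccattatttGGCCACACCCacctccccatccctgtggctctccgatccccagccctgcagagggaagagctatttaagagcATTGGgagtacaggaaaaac

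Pld4, chr6:137639698-137639947, plus strand: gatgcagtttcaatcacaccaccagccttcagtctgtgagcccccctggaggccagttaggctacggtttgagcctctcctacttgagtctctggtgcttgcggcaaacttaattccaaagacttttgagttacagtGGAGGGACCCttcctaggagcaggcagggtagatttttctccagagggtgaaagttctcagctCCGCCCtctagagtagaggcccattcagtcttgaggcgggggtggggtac

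Of 33469 rat promoters of this length, 30.5% held a GC box, 34.0% a CCAAT box and 42.3% the NF-kB letters. Among the 10 genes, 6 held a GC box (Lpcat1, Lpcat2, Lpcat3, Agpat1, Pld2 and Pld4), 5 a CCAAT box (Lpcat3, Lpcat4, Agpat1, Agpat4 and Pla2g2a) and 9 the NF-kB letters, all but Pla2g4a. Pla2g4a alone held the letters TATAAA (12.9% of promoters), on the opposite strand at -108 to -103 from the start, and other spellings of a TATA box were not searched. Agpat4 alone held an AP-1 site (6.34%) and Lpcat4 alone a C/EBP site (9.22%), while the PU.1 letters, in 2.04% of promoters, were in none of them. The Lpcat3 sequence was 68.8% G or C and that of Lpcat4 69.2%, against 52.4% for Pla2g2a, 54% for Pld4 and a median of 51.2% over all promoters. These letters are a description of the sequence and carry no information on what binds there.

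The comparison Model VS Normal asked how CCl4 injury changed the liver transcripts. In it, 9 of 10 genes met the study's thresholds for a higher level (edgeR p below 0.05 and absolute log2 fold change above 1), all but Lpcat3, where 16.6% of the 12730 genes tested did so. None of the 10 had a Benjamini-Hochberg adjusted p below 0.05 over all genes in edgeR's quasi-likelihood test (range 0.0648 for Lpcat4 to 0.321 for Lpcat3), against 7.87% of all genes. An unadjusted p below 0.05 was reached by the 9 called genes and by 28.9% of all genes, and DESeq2 gave 8 of the 10 an adjusted p below 0.05, as it did 18.2% of all genes with an adjusted p. For 7 of the 9, all but Agpat4 and Pla2g2a, the model livers lay above all normal control livers, as did those of 20.9% of all genes, and Lpcat3 was among the 17.3% that lay below. The median log2 fold change was 1.45 over the 10 genes and 0.02 over all genes tested, and that of the 10 genes was 0.86 without the first model liver. The model rats also served as the reference when the genes were chosen, so this comparison is not independent of the choice. Without the first model liver, 3 genes met the thresholds (Lpcat2, Lpcat4 and Pld2), where 16.0% of all genes did so in either direction, and their adjusted p stayed above 0.05.

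Among the LPCAT genes, Lpcat3 encodes the enzyme that prefers polyunsaturated acids such as arachidonate and linoleate and is a target of the liver X receptor. It was at 39.1, 47.7 and 37.7 CPM in the normal control livers, 35.5, 23.3 and 34.8 in the model livers and 42.0, 51.8 and 37.8 in the TA livers. All 3 model livers were below every normal and every TA liver, and the normal and TA livers overlapped. Its log2 fold change in Model VS Normal was -0.39 ± 0.24 (SE, edgeR adjusted p = 0.321), or -0.53 without the first model liver. It was -0.67 with limma voom and sample weights (limma adjusted p = 0.0325). The value became 0.26 when reads were scaled by library totals, a scaling that moved the median of all genes to 0.65. In TA VS Model the value was 0.47 ± 0.26 (SE), or 0.60 without the first model liver. Under library totals it was -0.031 there, where the median of all genes was -0.48.

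Lpcat4, which encodes another lysophospholipid acyltransferase, was at 2.09, 2.65 and 1.84 CPM in the normal control livers, 5.87, 4.82 and 5.03 in the model livers and 1.86, 2.04 and 3.14 in the TA livers. The model livers lay close together and above all other livers, and the TA livers overlapped the normal ones. The first model liver was only 1.19 times the mean of the other model livers for this gene. Its log2 fold change in Model VS Normal was 1.27 ± 0.35 (SE, edgeR adjusted p = 0.0648) and stayed between 1.13 and 1.41 when each liver was left out in turn. In TA VS Model it was -1.17 ± 0.38 (SE), with a range of -1.43 to -1.02 over the livers left out.

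Lpcat2 encodes an enzyme of inflammatory cells that also acetylates lyso-PAF to platelet-activating factor (PAF). Its level was 3.68, 1.16 and 3.85 CPM in the normal control livers, 16.3, 6.13 and 6.72 in the model livers and 5.51, 3.40 and 4.85 in the TA livers. All model livers were above all others, and the log2 fold change in Model VS Normal was 1.78 ± 0.58 (SE, edgeR adjusted p = 0.0944), or 1.16 without the first model liver. Lpcat1, known for making the saturated phosphatidylcholine of lung surfactant, was at 4.52, 3.30 and 4.52 CPM in the normal control livers, 15.4, 7.56 and 7.72 in the model livers and 7.09, 4.50 and 5.82 in the TA livers. Here too every model liver was above every normal and TA liver. The log2 fold change of Lpcat1 in Model VS Normal was 1.34 ± 0.39 (SE, edgeR adjusted p = 0.0704), or 0.89 without the first model liver.

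**Figure D1:**
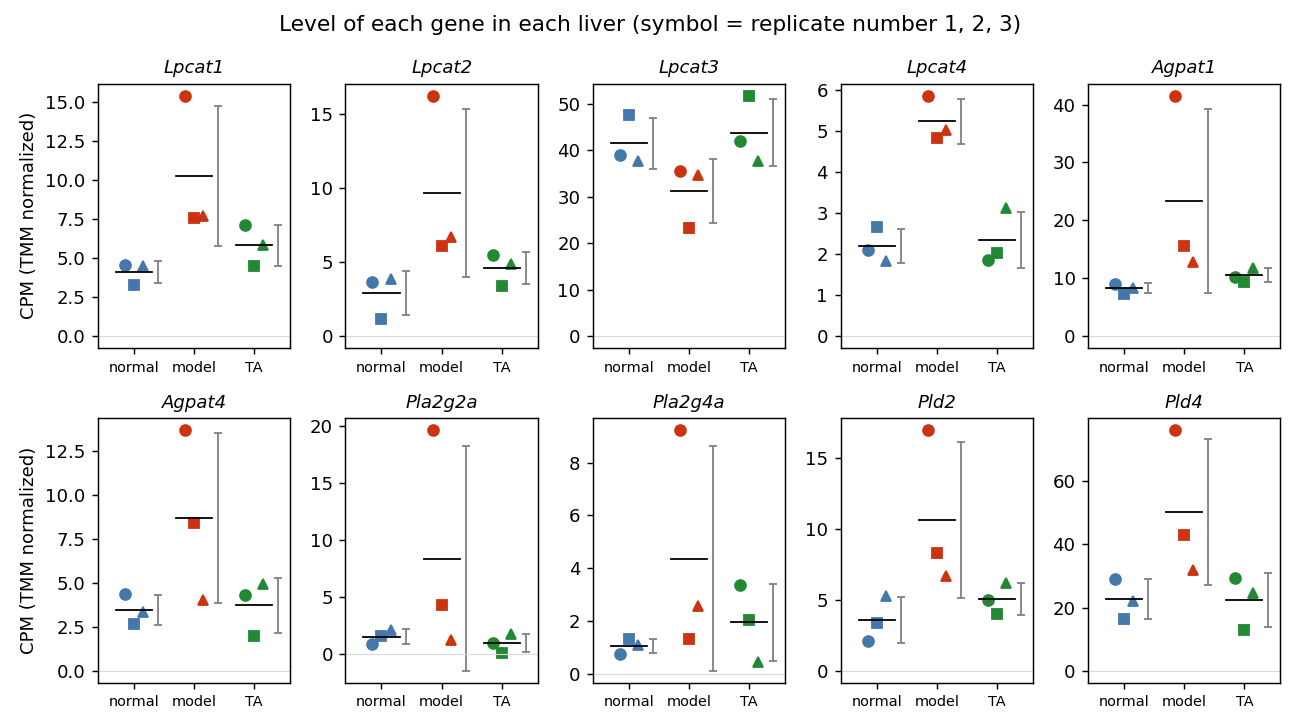
TMM-normalized CPM of the 10 genes in each liver of the normal control, model and TA groups (circle, square and triangle for replicates 1, 2 and 3, black line the mean, grey bar the SD, n = 3 per group, one linear axis per gene). The circle of the model group is the highest model point in 10 of 10 panels, the 3 model points of Lpcat4 lie close together between 4.82 and 5.87 CPM, and those of Lpcat3 lie below the other groups.

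The make-up of the LPCAT transcripts does not depend on how libraries are scaled, because it compares genes within a liver. By deposited FPKM, which divides by gene length, Lpcat3 made up 84.7%, 89.4% and 84.6% of the summed LPCAT signal in the normal control livers. In the model livers its share was 59.0%, 63.5% and 71.2%, and in the TA livers 82.0%, 88.4% and 79.6%. The 3 model livers were thus below all 6 others, and the normal and TA livers overlapped. Lpcat4 took 5.52% ± 0.514 (SD, n = 3) of the sum in normal control livers, 13.4% ± 2.23 in model livers and 5.56% ± 2.14 in TA livers, and the mean share of Lpcat2 was 3.62%, 11.1% and 5.16% in that order. The shares follow from levels used to choose the genes and carry no test.

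**Figure D2:**
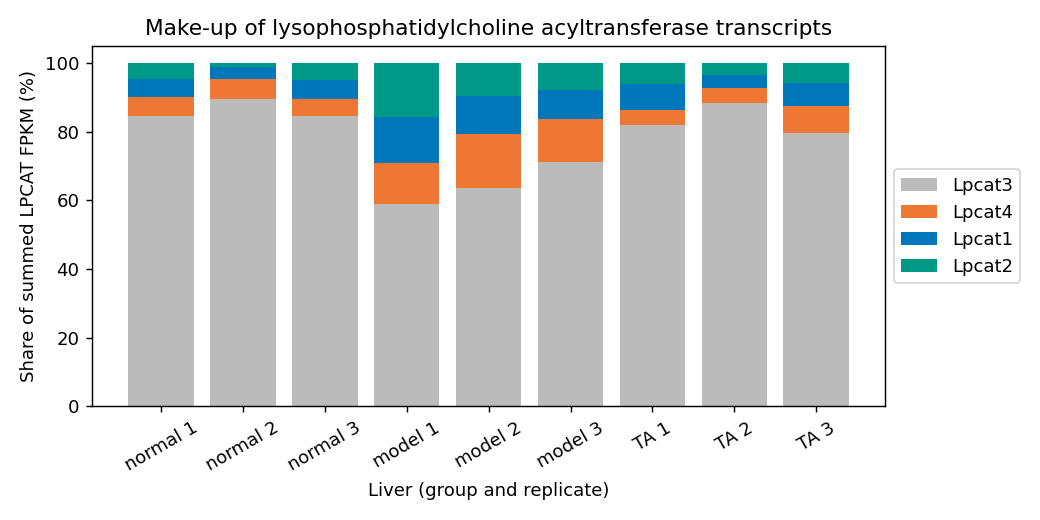
Share of the summed FPKM of Lpcat1, Lpcat2, Lpcat3 and Lpcat4 in each of the 9 livers, in percent, stacked to the whole. The grey Lpcat3 segment ends between 59.0% and 71.2% in the model livers and between 79.6% and 89.4% in the normal control and TA livers.

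Agpat1 encodes a lysophosphatidic acid acyltransferase of the endoplasmic reticulum. It was at 9.04, 7.31 and 8.36 CPM in the normal control livers, 41.5, 15.6 and 12.7 in the model livers and 10.2, 9.43 and 11.8 in the TA livers. The 3 groups did not overlap, with the TA livers between the other groups. In log2 terms it differed by 1.53 ± 0.46 (SE, edgeR adjusted p = 0.0775) in Model VS Normal and by -1.18 ± 0.46 (SE) in TA VS Model, or by 0.78 and -0.43 without the first model liver.

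Agpat4, a second lysophosphatidic acid acyltransferase, was at 4.35, 2.65 and 3.34 CPM in the normal control livers, 13.7, 8.41 and 4.03 in the model livers and 4.30, 1.95 and 4.93 in the TA livers. The third model liver lay within the range of both other groups. Its log2 fold change in Model VS Normal was 1.37 ± 0.48 (SE, edgeR adjusted p = 0.113), or 0.86 without the first model liver. By FPKM, which is per gene length, Agpat2 was the most abundant of these transcripts. It took 82.1% ± 4.85 (SD, n = 3) of the summed FPKM of Agpat1, Agpat2, Agpat3, Agpat4 and Agpat5 in normal control livers, 57.4% ± 18.7 in model livers and 79.3% ± 3.55 in TA livers, while Agpat1 took 2.39%, 12.3% and 3.06%. The share of Agpat1 was 24.7% in the first model liver and 7.17% and 5.04% in the others of its group.

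Pla2g2a encodes the secreted group IIA phospholipase A2, an acute-phase and antibacterial enzyme. Its level was 0.837, 1.55 and 2.09 CPM in the normal control livers, 19.6, 4.24 and 1.20 in the model livers and 0.931, 0.0849 and 1.72 in the TA livers, and the lowest of these values stands for 1 read. The first model liver held 445 reads, the others of its group 65 and 17, so the third model liver overlapped both other groups. In Model VS Normal its log2 fold change was 2.52 ± 0.94 (SE, edgeR adjusted p = 0.126), or 0.86 without the first model liver. Pla2g2a and Pla2g5 overlap in GRCr8, and Pla2g5 held 0 to 2 reads in each liver.

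Pla2g4a encodes the calcium-dependent cytosolic phospholipase A2 that releases arachidonate. It was at 0.754, 1.29 and 1.09 CPM in the normal control livers, 9.22, 1.30 and 2.55 in the model livers and 3.36, 2.04 and 0.448 in the TA livers. The second model liver was barely above the highest normal liver, at 20 reads each. The log2 fold change was 2.08 ± 0.75 (SE, edgeR adjusted p = 0.118) in Model VS Normal and -1.19 ± 0.88 (SE) in TA VS Model, where the groups overlapped. Leaving out the first model liver gave 0.85 and 0.021, so the direction of the second value turned.

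Pld2 encodes a classical phospholipase D that makes phosphatidic acid. It was at 2.09, 3.36 and 5.27 CPM in the normal control livers, 16.9, 8.28 and 6.65 in the model livers and 5.01, 3.99 and 6.20 in the TA livers. All model livers were above all others, the third one narrowly so against the TA group. Pld2 had a log2 fold change in Model VS Normal of 1.60 ± 0.49 (SE, edgeR adjusted p = 0.0834), or 1.06 without the first model liver.

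Pld4 carries a phospholipase D name, but its product is known as a lysosomal exonuclease of single-stranded nucleic acids in immune cells. It was at 29.1, 16.5 and 22.2 CPM in the normal control livers, 75.9, 42.8 and 31.8 in the model livers and 29.4, 12.9 and 24.7 in the TA livers. The model livers were again above all others and the remaining groups overlapped. The log2 fold change in Model VS Normal was 1.18 ± 0.37 (SE, edgeR adjusted p = 0.0888), or 0.72 without the first model liver.

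Per gene length, Lpcat3 and Pld4 were the most abundant of the 10 transcripts. In the normal control group the order by FPKM was Lpcat3 at 18.3 ± 2.75 (SD, n = 3), Pld4 at 9.49 ± 2.61, Agpat1 at 2.16 ± 0.209 and Agpat4 at 1.498 ± 0.364, and no neighbours among these overlapped. The next were Pla2g2a at 1.47 ± 0.601, Lpcat4 at 1.18 ± 0.248, Pld2 at 1.07 ± 0.459, Lpcat1 at 0.952 ± 0.148, Lpcat2 at 0.732 ± 0.372 and Pla2g4a at 0.259 ± 0.0703, with each neighbour overlapping the one before it from Pla2g2a on. In the model group Pld4 came first at 35.9 ± 26.2 and Lpcat3 second at 21.9 ± 9.23, and every neighbour in the order overlapped. FPKM is scaled by library totals, so these levels are compared within a group and not between groups. By TMM-scaled CPM the mean of Lpcat3 was 31.2 in the model group and 41.5 in the normal control group. The TA group had the normal order at the top, again without overlap, with Lpcat3 at 21.4 ± 3.10, Pld4 at 10.6 ± 4.45, Agpat1 at 3.07 ± 0.384 and Agpat4 at 1.82 ± 0.792.

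The comparison TA VS Model asked what tormentic acid changed in injured livers, and it is the one that led to the choice of these genes. The 7 of 10 that met the thresholds for a lower level in the TA group were Lpcat2, Lpcat4, Agpat1, Agpat4, Pla2g2a, Pld2 and Pld4. Of the 12781 genes tested 10.2% did so, and because the genes were chosen on this comparison nothing is read from the count. Over all genes edgeR gave 0 with an adjusted p below 0.05, 1999 (15.6%) with an unadjusted p below 0.05, and DESeq2 gave 520. The log2 fold changes of the called genes not given above were -1.10 ± 0.46 (SE) for Lpcat2, -1.25 ± 0.54 for Agpat4, -3.21 ± 1.14 for Pla2g2a, -1.09 ± 0.43 for Pld2 and -1.19 ± 0.42 for Pld4. Pld2 lay just inside the fold threshold and Lpcat1 at -0.84 ± 0.39 just outside it, and Agpat4, the nearest to the threshold on p, was no longer called with DESeq2's size factors. The TA livers did not overlap the model livers for 6 of the 9 lower genes, the exceptions being Agpat4, Pla2g2a and Pla2g4a, beside 12.6% of all genes that were lower without overlap, and Lpcat3 was among the 10.5% that were higher without overlap.

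Without the first model liver, Lpcat4 alone of the 10 met the thresholds in TA VS Model, where 6.13% of all genes did so in either direction. The log2 fold changes were then -0.39 for Lpcat1, -0.48 for Lpcat2, -0.73 for Agpat4, -1.55 for Pla2g2a, -0.56 for Pld2 and -0.74 for Pld4. Leaving out the first TA liver left 1 of the 10, Pld4, and leaving out the second left 0.

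**Figure D3:**
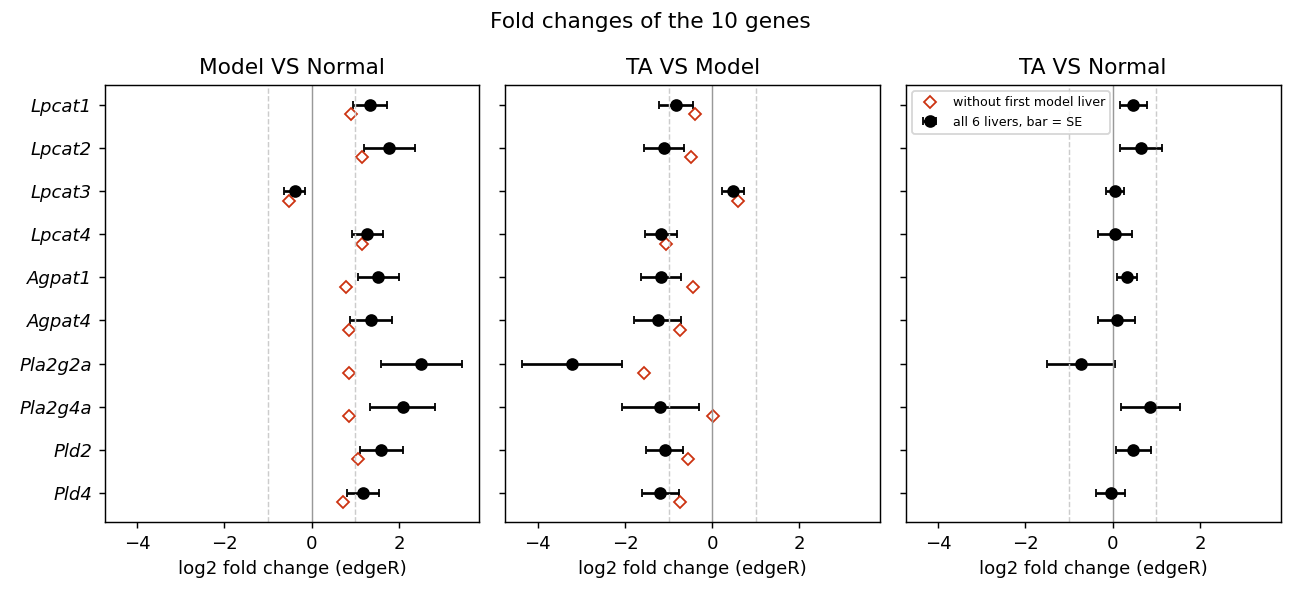
Log2 fold changes (edgeR) of the 10 genes in Model VS Normal, TA VS Model and TA VS Normal, with SE bars (3 livers a group), open diamonds for the fit without the first model liver, and dashed lines at absolute log2 1. The diamonds lie nearer 0 for 9 of 10 genes in the first panel, and Lpcat3 is on the other side of 0 from the rest in the first and second panels, unlike under scaling by library totals (0.26 in the first, -0.031 in the second).

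TA VS Normal compared treated injured livers with uninjured ones. None of the 10 met the thresholds, where 5.25% of the 12179 genes tested did, and the smallest edgeR adjusted p was 0.763 (Lpcat1). An unadjusted p below 0.05 was reached by 9.43% of all genes, and DESeq2 and limma voom also called none of the 10. The largest log2 fold changes were 0.86 ± 0.68 (SE) for Pla2g4a and -0.73 ± 0.78 for Pla2g2a, and those of Lpcat3, Lpcat4, Agpat4 and Pld4 lay between -0.04 and 0.09, with signs that turned under other settings. Agpat1 was the only gene whose TA livers were all above the normal ones, at 0.32 ± 0.23 (SE, adjusted p = 0.796), where 8.26% of all genes were higher without overlap. The TA livers were also part of the comparison on which the genes were chosen, several for being low there. This comparison is therefore not independent of the choice, and nothing is read from the count. A p that misses the threshold does not show that the groups were alike. With the replicate number as a block, 0 of the 10 met the thresholds, while genes with an adjusted p below 0.05 went from 32 (0.263% of all genes) to 203. That block was taken from the likeness of same-numbered livers in these data and not from the labels, so nothing is read from the rise.

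Transcripts of several cell type markers also differed between the groups. In whole tissue a change in the number of cells of a type and a change in RNA per cell cannot be told apart. The summed CPM of 8 markers of scar-associated or recruited macrophages was 86.8 to 189 in the normal control livers, 397 to 3211 in the model livers and 145 to 304 in the TA livers, with 7 of 7 tested markers called higher in Model VS Normal and 6 of 7 lower in TA VS Model. That sum was 3211 in the first model liver, against 397 and 447 in the others of its group. Over all genes, 16.6% were called higher in Model VS Normal and 10.2% lower in TA VS Model. Marker calls without the first model liver are not given here. Ccr2 was at 0 in 5 livers. For 7 stellate cell and myofibroblast markers the sum was 199 to 298, 1150 to 11864 and 649 to 1145 CPM in the same order, with 6 of 7 called higher and 6 of 7 lower. The 11864 was the first model liver. The others of its group were at 1150 and 1425, little above the highest TA liver. Cholangiocyte markers summed to 16.7 to 24.4, 83.2 to 150 and 29.8 to 35.99 CPM, with 5 of 5 called in each direction, and 3 mesothelial markers summed to 0.836 to 2.51, 24.99 to 82.1 and 4.67 to 11.5 CPM.

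Neutrophil markers summed to 11.0 to 24.0 CPM in the normal control livers, 41.9 to 86.6 in the model livers and 18.6 to 33.4 in the TA livers. The summed 8 resident macrophage markers did not follow this order, at 304 to 424, 178 to 407 and 265 to 685 CPM. Single markers went opposite ways. In Model VS Normal Adgre1 and Csf1r were called higher and Marco and Cd5l lower, and in TA VS Model Clec4f alone was called, higher. The livers were labelled as liver and held all 8 hepatocyte markers, whose sum was 114232 to 142677 CPM in the normal control livers, 26374 to 96512 in the model livers and 90850 to 152848 in the TA livers, with 0 of 8 called in either comparison. The 26374 was the first model liver, with 75578 and 96512 in the others, and every model liver was below every normal one. All 8 had a log2 fold change below 0 in Model VS Normal (median -0.91). The 6 markers of B cells and plasmacytoid dendritic cells summed to 37.8 to 52.1, 78.8 to 104 and 48.9 to 65.4 CPM, so the model livers lay above all others, with none of those tested called. T cell sums were 8.41 to 19.6, 18.1 to 47.4 and 13.8 to 17.2 CPM, also with none called. Endothelial sums overlapped at 155 to 192, 123 to 235 and 187 to 241 CPM, with Cdh5 called higher and Kdr lower in Model VS Normal and Clec4g and Kdr higher in TA VS Model. The adipocyte sum, which was nearly all Cidec since Adipoq was at 0 in 6 livers, was 86.4 to 100.4 CPM in the normal control livers, 15.1 to 49.7 in the model livers and 66.4 to 101 in the TA livers, and the pancreatic marker Cpa1 was at 0 in every normal and TA liver. The part of these cell types in the values of the 10 genes was not tested.

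Enzymes next to these 10 in the same pathways did not share one pattern. Over all genes, 16.6% were called higher and 5.55% lower in Model VS Normal, and 2.11% higher and 10.2% lower in TA VS Model. The list with the most calls was that of the arachidonate and PAF pathway, with 18 genes tested. These genes handle free arachidonate, make prostaglandins and leukotrienes, or encode receptors for these or for PAF. In Model VS Normal 9 of them were called higher and 1 lower, and 5 of the 9 rose with an edgeR adjusted p below 0.05. The median log2 fold change of the list was 1.97. It was 0.82 without the first model liver, with 8 called higher, 1 lower and 3 at an adjusted p below 0.05. Ptgs2, the inducible cyclooxygenase, was at 0.0837, 0.194 and 0.0836 CPM in the normal control livers, 5.29, 2.61 and 2.41 in the model livers and 1.15, 1.61 and 0.597 in the TA livers. Every model liver was above every TA liver and every TA liver above every normal one. Ptgs2 rose by 4.72 ± 0.66 (log2, SE, edgeR adjusted p = 0.012) and was 4.22 without the first model liver.

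In the same comparison Alox15, a lipoxygenase, had a log2 fold change of 3.81 ± 0.82 (SE, edgeR adjusted p = 0.0357) and Ptgis, the prostacyclin synthase, of 3.68 ± 0.86 (adjusted p = 0.042), while Ptger4, a prostaglandin E2 receptor, was at 3.54 ± 0.94 (adjusted p = 0.0587). These became 3.22 (adjusted p = 0.0552), 2.85 (adjusted p = 0.0564) and 2.54 (edgeR adjusted p = 0.115) without the first model liver. Ltc4s, the leukotriene C4 synthase, was lower at -3.15 ± 0.92 (adjusted p = 0.0721), but the normal control livers themselves were at 5.27, 5.37 and 44.8 CPM. Alox5, Alox15, Ptgds, Ptger4 and Ptgs2 were at or below 2.61 CPM in all normal control and TA livers, so these are low counts.

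In TA VS Model 7 of the 18 were called lower, among them Ptgds at -2.40 ± 0.91 (SE, edgeR adjusted p = 0.285), Ptger4 at -2.19 ± 0.93 (adjusted p = 0.314), Alox15 at -2.11 ± 0.78 (adjusted p = 0.282), Alox5 at -1.87 ± 0.67 (adjusted p = 0.277) and Ptgs2 at -1.64 ± 0.56 (adjusted p = 0.267), and none passed the adjusted threshold. Without the first model liver 1 was called lower (Ptgds) and 1 higher (Ltc4s), and the list median went from -1.38 to -0.26. Ptgis was at 14.3 and 12.2 CPM in the other model livers and 10.1, 8.49 and 14.6 in the TA livers, against 0.167 to 3.35 in the normal control livers, and it was the only one of 13 genes of the list tested in TA VS Normal that was called there, at 2.57 ± 0.70 (SE, edgeR adjusted p = 0.217).

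**Figure D4:**
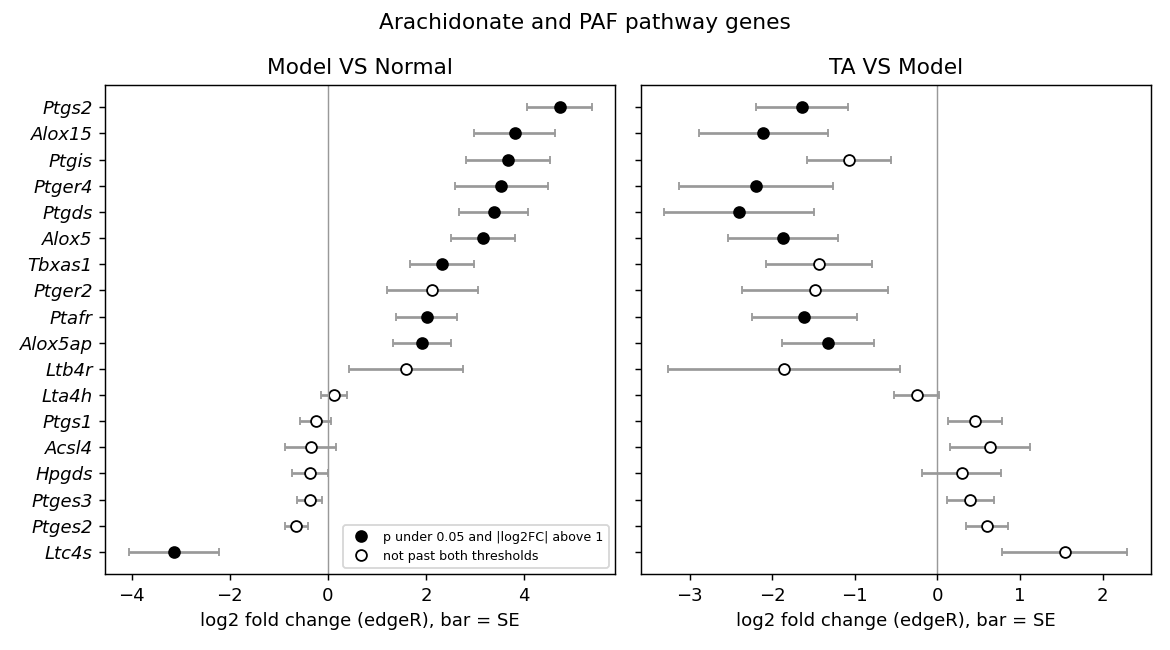
Log2 fold change (edgeR, SE bars, 3 livers a group) of 18 arachidonate and PAF pathway genes in Model VS Normal and TA VS Model, ordered by the first. Filled circles mark genes with p below 0.05 and absolute log2 fold change above 1, which are 9 higher and 1 lower on the left and 7 lower on the right.

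Of the other phospholipases A2, 2 of 12 tested were called higher in Model VS Normal and none lower, and only Pla2g7 without the first model liver. Pla2g7, which encodes the enzyme that inactivates PAF, was at 2.76, 0.712 and 0.92 CPM in the normal control livers, 96.2, 11.8 and 8.21 in the model livers and 8.02, 3.06 and 6.12 in the TA livers. It rose by 4.78 ± 1.10 (log2, SE, edgeR adjusted p = 0.0414) in Model VS Normal, a value of 2.79 without the first model liver, and the log2 fold change was -2.78 ± 0.95 (adjusted p = 0.267, or -0.80 without that liver) in TA VS Model and 1.95 ± 0.59 (adjusted p = 0.28) in TA VS Normal. Pla2g2d was at 2.81 ± 0.94 (adjusted p = 0.101) in Model VS Normal and 1.19 without the first model liver.

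Pla1a, a phospholipase A1 that acts on phosphatidylserine, was at 5.78, 5.24 and 3.26 CPM in the normal control livers, 28.9, 82.3 and 24.8 in the model livers and 29.4, 13.8 and 11.5 in the TA livers. Unlike the 10 genes, it was highest in the second model liver. It rose by 3.27 ± 0.52 (log2, SE, edgeR adjusted p = 0.0159), with 3.49 when the first model liver was left out, and the log2 fold change was -1.33 ± 0.55 (adjusted p = 0.308) in TA VS Model and 1.91 ± 0.41 (adjusted p = 0.125) in TA VS Normal. Of the 14 phospholipases A1, B and lysophospholipases tested, 1 was called higher (Pla1a) and 1 lower (Lypla1, at -1.02 ± 0.30, adjusted p = 0.0751). Without the first model liver none was called lower and 3 higher, Pla1a besides Liph and Gpcpd1, the latter pair picked out once their values were known.

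Among 8 other acyltransferases, Mboat1 was called higher in Model VS Normal at 1.00 ± 0.38 (SE, edgeR adjusted p = 0.126) and Agpat2 lower at -1.16 ± 0.39 (adjusted p = 0.102), and the list median was -0.35. Agpat2 was also the 1 gene called higher in TA VS Model, at 1.14 ± 0.41 (adjusted p = 0.276). Without the first model liver no gene of this list was called in either comparison, with Mboat1 at 0.53 and Agpat2 at -0.85 in Model VS Normal and Agpat2 at 0.82 in TA VS Model. Of 6 other phospholipase D family genes, Pld3, which like Pld4 encodes a lysosomal exonuclease, was called higher at 2.26 ± 0.79 (adjusted p = 0.11) and 0.55 without the first model liver, and Gpld1, an enzyme hepatocytes secrete, lower at -1.53 ± 0.59 (adjusted p = 0.135). Among 9 genes of phospholipid transport and the liver X receptor, Mfsd2a, a carrier of lysophosphatidylcholine, was lower at -2.56 ± 0.94 (adjusted p = 0.121), Stard10 at -1.39 ± 0.58 and Nr1h3, the liver X receptor alpha, at -1.18 ± 0.43 (adjusted p = 0.122), and Pltp was higher at 1.75 ± 0.68. Nr1h3 (-0.87) and Pltp (0.36) were not called without the first model liver, while Mfsd2a (-2.03, edgeR adjusted p = 0.0121), Stard10 (-1.02) and Gpld1 (-1.12) were. None of the genes in these last lists was called in TA VS Normal.

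Likeness of pattern was measured by Pearson's r of log2 CPM over the 9 livers, among 7955 genes whose log2 CPM averaged 3 or more. All points share these livers, and the first model liver stands apart for many genes, so the values are a description. The 3 genes most like Lpcat1 were Glipr1, Pip4k2a and Lilrb4 (r 0.991 to 0.987), those for Lpcat2 Mapkapk3, LOC100361025 and Ankmy2 (0.993 to 0.967), those for Lpcat3 Cd14, Chfr and Dedd (0.977 to 0.937) and those for Lpcat4 Srpk2, Rhob and Sat1 (0.930 to 0.919). For Agpat1 they were Aldoa, Pkm and Spp1 (0.989 to 0.987) and for Agpat4 Bcam, Myl9 and Lmo2 (0.971 to 0.959). For Pla2g2a they were Rpl27a, Aida and Dynll1 (0.959 to 0.948) and for Pla2g4a Pxk, Eftud2 and LOC102553386 (0.981 to 0.959). For Pld4 they were Commd8, Cebpd and Lmo2 (0.975 to 0.968). Within the 10, Agpat4 and Pld4 were the most alike (r = 0.970), then Lpcat1 and Lpcat2 (0.954), and Lpcat3 had a negative r with all but Pla2g4a (0.017), the lowest with Agpat4 (-0.711).

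Some counts are uncertain because genes overlap and the strand use of the counting is not stated. In GRCr8, Lpcat3 overlaps Emg1, which held 160 to 362 reads in the model livers and 185 to 237 in the normal control livers, and Agpat1 overlaps Egfl8, which held 47 to 87 and 46 to 106. Lpcat2, Agpat4 and Pld4 overlap Capns2 or annotated noncoding RNAs, while Lpcat1, Lpcat4, Pla2g4a and Pld2 overlap no other RefSeq gene.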

How the data were processed

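Liver RNA of 9 rats was converted to libraries with the NEBNext Ultra kit, and the authors' methods name STAR and HTSeq for mapping and counting. The methods and the labels name human and mouse genome builds (the labels mm9), while the tables hold rat symbols, 15601 of 17156 of which matched RefSeq (GRCr8). Whether counting used strand is not stated. The authors deposited 2 tables (16938 and 16948 genes, 16730 in both) with raw read counts per liver, counts normalized by the authors (a signal, not used in tests) and FPKM. Columns of the authors' own comparisons hold fold changes and p-values and were not used.

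The counts were tested with edgeR 4.0.16 in R 4.3.3 (quasi-likelihood test, where the study used DESeq2, TMM, filterByExpr, fit on the 6 livers of each comparison, Benjamini-Hochberg over all genes tested), which the unit asks for, and all 10 genes passed the filter. DESeq2 1.42.0 and limma 3.58.1 (voom) were alternatives, besides other scalings, filters and designs and each liver left out. Standard errors were the size of the log2 fold change over the root of its F value. A gene was called at p below 0.05 and absolute log2 fold change above 1. The test was tried on simulated counts with 200 changed genes first. Replicates are separate livers, no pair of libraries was identical, and read totals limit the precision of genes with few reads. With 3 livers a group an exact permutation test cannot go below 0.1.

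The 10 genes, the pathway lists and the marker lists were chosen with earlier results of these data known. Genes named from a pathway list are those called in Model VS Normal or TA VS Model, at most 4 in each direction by fold change, and 3 genes of like pattern are named per gene, except for Pld2, whose list is not reported here. Same-numbered livers deviated together in TA VS Normal (r 0.258 to 0.501 for 3 of 3 pairs, from the data and not from the labels), so that comparison was also fitted with the replicate number as a block.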

Additional observations from a re-analysis of the deposited data

How the results depend on the processing

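With each liver left out in turn, genes called in TA VS Model ranged from 792 to 2792 and of the 10 genes from 0 to 7, with the lowest counts without the first model liver and without the second TA liver. In Model VS Normal the 10 genes called ranged from 3 (without the first model liver) to 9, those with an adjusted p below 0.05 from 0 to 6 (without the third model liver), and all genes with an adjusted p below 0.05 from 0 (without the second normal liver) to 2537. In TA VS Model that last count ranged from 0 to 1 and in TA VS Normal from 1 to 61, where 0 to 1 of the 10 were called. The log2 fold change of Pla2g4a in TA VS Model ranged from -1.84 to 0.021, and those in TA VS Normal from -0.10 to 0.16 for Lpcat3, -0.21 to 0.22 for Lpcat4, -0.16 to 0.39 for Agpat4 and -0.29 to 0.23 for Pld4, so 5 genes turned in direction.

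Genes with an adjusted p below 0.05 in Model VS Normal, 1002 with edgeR, were 1980 with library totals, 2714 with DESeq2, 3467 with limma voom and sample weights and 1757 with all 9 livers in 1 fit, and of the 10 genes 6, 8, 7 and 4 passed, against 0. The 7 with limma voom included Lpcat3, which was lower in the model livers. In TA VS Model, 2447 genes were called with library totals (1571 with TMM), an adjusted p below 0.05 was reached by 520 with DESeq2 and 205 with limma voom (0 with edgeR), and 3 of the 10 genes were called with limma voom and 3 with the replicate block. In TA VS Normal, 32 genes passed the adjusted threshold, 56 with library totals, 76 without the filter on low counts, 332 with DESeq2, 127 with limma voom, 14 with all 9 livers in 1 fit and 203 with the replicate block. Directions turned for Lpcat3 with library totals (0.26 in Model VS Normal, -0.031 in TA VS Model), for Pla2g4a in TA VS Model with limma voom (0.41), and in TA VS Normal for Pld4 with library totals (0.16), Lpcat4 with limma voom (-0.17) and Agpat4 with limma voom (-0.077). The cause of these differences was not tested.

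Same-numbered livers had a mean r of 0.034 in Model VS Normal (0.063 for TA VS Model), with 1 of 3 pairs above 0.1 in each, so the numbers were not taken as a pairing there, and the replicate block gave 7 and 3 called of the 10 genes. Over the 10 genes and all alternatives, each log2 fold change was compared with the main fit. The comparison took its direction and whether it was called (p below 0.05 and absolute log2 fold change above 1). Both stayed the same for 119 of 140 values in Model VS Normal and 101 of 140 in TA VS Model, and 20 and 34 lost a call. In TA VS Normal none of the 10 genes was called in the main fit, so no call could be lost. There 126 of 140 values kept their direction and stayed uncalled. Depth limits Pla2g2a and Pla2g4a most, which held few reads in most livers. By TMM-scaled CPM per kilobase in place of FPKM, 27 of 30 group levels moved by less than 1 SD. The SD was that of the group's own FPKM and was wide in the model group (26.2 for Pld4 at a mean of 35.9). The count therefore cannot show that the model levels were stable. Called genes of the other pathway lists without the first model liver were an alternative chosen after seeing the data.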
